A study of Mus musculus with 5 samples.

Results

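Bipolar cells are the interneurons that carry the photoreceptor signal to amacrine and ganglion cells, and 8 of their genes, *Vsx1*, *Grm6*, *Trpm1*, *Prkca*, *Pcp2*, *Cabp5*, *Grik1* and *Isl1*, were examined in the retina after optic nerve crush (ONC). The genes were taken by symbol from the count table, all 8 of the 8 names were found among its 25655 genes, and all 8 passed the filter on low counts. Total RNA had been sequenced from the injured whole retina of wildtype C57BL/6 mice, 8 to 10 weeks old, 7 days after ONC. The control group was 3 mice given the vehicle DMSO (replicates 1, 2 and 3), and the treated group was 2 mice given Sorbinil at 10 mg/kg (replicates 1 and 3), an inhibitor of aldose reductase. Every retina was crushed and every mouse was injected daily, so the comparison is of Sorbinil with DMSO after injury and holds no uninjured retina. A further Sorbinil retina, left out by the authors after a principal component analysis, was not analysed here.

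ON bipolar cells respond to light through a receptor that works in reverse. In darkness, glutamate from the photoreceptor activates mGluR6, the product of *Grm6*, which acts through a Go protein to keep the cation channel TRPM1 closed, and light lets the channel open. OFF bipolar cells instead carry ionotropic receptors that glutamate opens directly, among them kainate receptors with the subunit encoded by *Grik1*. The crush cuts the axons of ganglion cells, the cells that receive bipolar input, and leaves the bipolar cells themselves without direct axonal injury. In a whole retina, fewer cells of a type and less RNA per cell cannot be told apart.

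The 5 libraries held between 56096541 and 90288552 counts on genes, so each of the 8 genes rested on at least 722 counts in every retina. The library of Sorbinil replicate 1 stood apart from the others. Its chi-square per degree of freedom against the other retinas was at least 173, compared to at most 98.3 between any other pair. Rod genes and bipolar genes moved in opposite directions in it, so values are given for both Sorbinil retinas. Mitochondrially encoded genes made up 3.70% and 4.05% of counts in Sorbinil replicates 1 and 3, compared to 1.94% to 2.66% with DMSO. With mitochondrial and rod genes left out of the scaling, the median log2 fold change of the 8 genes stayed at -0.49. Any other part of the mitochondrial genes in the results was not tested. Values are CPM, that is counts scaled to a common library size after TMM normalization, unless stated otherwise. Differences of a single retina are given as log2 CPM minus the mean log2 CPM of the DMSO retinas.

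*Grm6* (ENSMUSG00000000617, chromosome 11 from 50741512 to 50757035, plus strand, GRCm39) encodes the glutamate receptor mGluR6 of ON bipolar cells. It measured 86.7, 84.5 and 86.6 CPM in DMSO replicates 1, 2 and 3, and 35.1 and 93.1 CPM in Sorbinil replicates 1 and 3. The DMSO retinas hardly differed from each other, and the Sorbinil retinas lay on either side of them. *Trpm1* (ENSMUSG00000030523, chromosome 7 from 63803583 to 63922019, plus strand) encodes the channel at the end of this cascade. Its values were 317.5, 292.8 and 363.4 CPM with DMSO, and 137.8 and 367.8 CPM with Sorbinil. Sorbinil replicate 1 was again far below and Sorbinil replicate 3 slightly above every DMSO retina. *Grm6* averaged 86.0 ± 1.2 CPM in the 3 DMSO retinas and 64.1 ± 41.0 CPM in the 2 Sorbinil retinas (mean ± SD), and that of *Trpm1* was 325 ± 36 and 253 ± 163 CPM. For both genes the spread between the 2 Sorbinil retinas was larger than the difference between the groups.

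*Pcp2* and *Prkca* act on signaling inside ON bipolar cells. *Pcp2* (ENSMUSG00000004630, chromosome 8 from 3673371 to 3675545, minus strand) encodes a small protein that binds the Go alpha subunit. It measured 71.1, 64.3 and 67.0 CPM with DMSO, and 33.3 and 58.4 CPM with Sorbinil. Both Sorbinil retinas were below every DMSO retina, replicate 3 by a small margin. *Prkca* (ENSMUSG00000050965, chromosome 11 from 107824212 to 108235099, minus strand) encodes protein kinase C alpha, the usual marker of rod bipolar cells, and is also used by other cell types. Its values were 409, 399.3 and 385 CPM with DMSO, and 371 and 492 CPM with Sorbinil. It was the only one of the 8 genes that was not at least 2-fold below the DMSO mean in Sorbinil replicate 1, and in Sorbinil replicate 3 it was above every DMSO retina.

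*Cabp5* and *Isl1* mark sets of bipolar cells without belonging to the receptor cascade. *Cabp5* (ENSMUSG00000005649, chromosome 7 from 13132057 to 13142812, plus strand) encodes a calcium-binding protein of rod bipolar cells and of some cone bipolar types. It measured 76.7, 62.8 and 67.8 CPM with DMSO, and 31.3 and 61.5 CPM with Sorbinil. As for *Pcp2*, both Sorbinil retinas were below every DMSO retina, with replicate 3 only just so. *Isl1* (ENSMUSG00000042258, chromosome 13 from 116434817 to 116446235, minus strand) encodes a LIM homeodomain factor of ON bipolar cells that is also made by ganglion cells and starburst amacrine cells. Its values were 48.4, 41.2 and 55.0 CPM with DMSO, and 20.5 and 44.3 CPM with Sorbinil, so that Sorbinil replicate 3 lay inside the DMSO range.

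*Vsx1* and *Grik1* represent cone bipolar cells, mainly of the OFF pathway. *Vsx1* (ENSMUSG00000033080, chromosome 2 from 150522622 to 150531280, minus strand) encodes a homeodomain factor of some cone bipolar types. It measured 38.0, 28.5 and 35.2 CPM with DMSO, and 13.7 and 32.8 CPM with Sorbinil. *Grik1* (ENSMUSG00000022935, chromosome 16 from 87692788 to 88087153, minus strand) measured 108.3, 88.1 and 96.9 CPM with DMSO, and 48.3 and 95.4 CPM with Sorbinil. For both, Sorbinil replicate 1 was below and Sorbinil replicate 3 within the DMSO range.

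**Figure D1:**
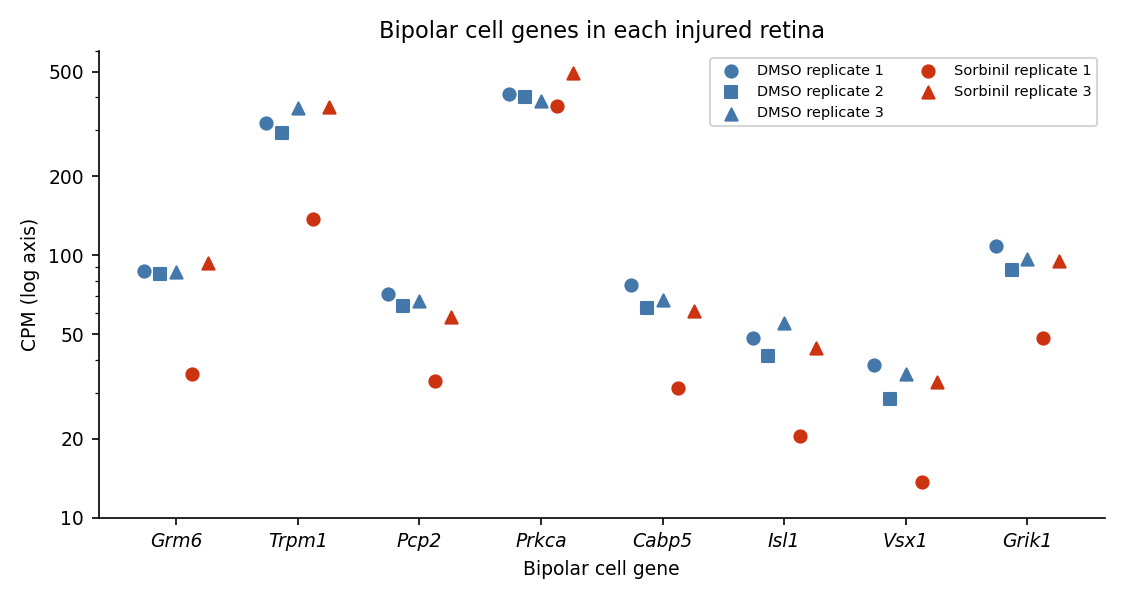
CPM (log axis) of the 8 bipolar cell genes in each retina, with DMSO in blue and Sorbinil in red and 1 point per retina. Sorbinil replicate 1 lies below every DMSO retina for all 8 genes, from 13.7 CPM for *Vsx1* to 371 CPM for *Prkca*, while Sorbinil replicate 3 lies in or near the DMSO range.

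The groups were then tested across the 14992 genes that passed the filter, with the quasi-likelihood test of edgeR. At the threshold of the study, an unadjusted p-value of at most 0.1 with at least a 2-fold change, 0 of the 8 genes were called, where 1.35% of all genes tested were called lower and 0.36% higher. Of the 8 genes, 1 had an unadjusted p-value of at most 0.1 at any fold, compared to 11.3% of all genes. That gene was *Pcp2*, with a log2 fold change of -0.56 (SE 0.25) and a p-value of 0.0668 by the edgeR quasi-likelihood test, or 0.758 after Benjamini-Hochberg adjustment over all genes. *Cabp5* was at -0.57 (SE 0.29), with a p-value of 0.101 before and 0.758 after adjustment in the same edgeR fit. Across the other genes, *Isl1* (-0.57), *Vsx1* (-0.54), *Grik1* (-0.44), *Grm6* (-0.42) and *Trpm1* (-0.36) had standard errors of 0.30 to 0.41, and *Prkca* had 0.12 with a standard error of 0.17. By edgeR, 0 of the 8 had an adjusted p-value under 0.05 and 0 an unadjusted p-value under 0.05, and the DESeq2 Wald test gave the same counts of 0 and 0. A p-value that misses the threshold does not show that the groups were equal.

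The groups did not overlap for *Pcp2* and *Cabp5*, both lower with Sorbinil, that is for 2 of 8 genes. Over all genes tested the Sorbinil retinas lay below every DMSO retina for 10.5% and above every DMSO retina for 12.8%, and 0 of the 8 bipolar genes were of the second kind. In the exact permutation test of log2 CPM over all 10 groupings (two-sided), *Pcp2* and *Cabp5* had p = 0.1, the smallest that 2 retinas against 3 allow. The other 6 genes had p between 0.2 and 0.7 in this exact test. The median log2 fold change of the 8 genes was -0.49, compared to -0.008 for all genes tested. It was below 0 for 7 of the 8 genes and for 51.0% of all genes tested.

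The 2 Sorbinil retinas did not share this median. In Sorbinil replicate 1 the 8 genes lay at a median of -1.18 log2 from the DMSO mean, and 7 of the 8 were at least 2-fold lower, compared to 17.4% of all genes tested. Leaving *Prkca* aside, the 7 genes spanned only -1.29 to -1.01, with *Vsx1* and *Grm6* the lowest (2.45-fold and 2.44-fold lower) and *Grik1* and *Pcp2* the highest (both 2.02-fold lower). In Sorbinil replicate 3 the median was -0.03, within the DMSO medians of -0.14 to 0.06, and 0 of the 8 genes were at least 2-fold lower, compared to 0.914% of all genes. The individual differences there ran from -0.21 for *Pcp2* to 0.31 for *Prkca*. Without Sorbinil replicate 1 the median log2 fold change of the 8 genes was -0.03, with *Grm6* at 0.13 and *Trpm1* at 0.19. Without Sorbinil replicate 3 it was -1.19, and 7 of the 8 genes were called, where 17.4% of the 15266 genes in that fit were called lower. Each of these fits has a lone Sorbinil retina that is assumed to vary like the DMSO retinas.

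**Figure D2:**
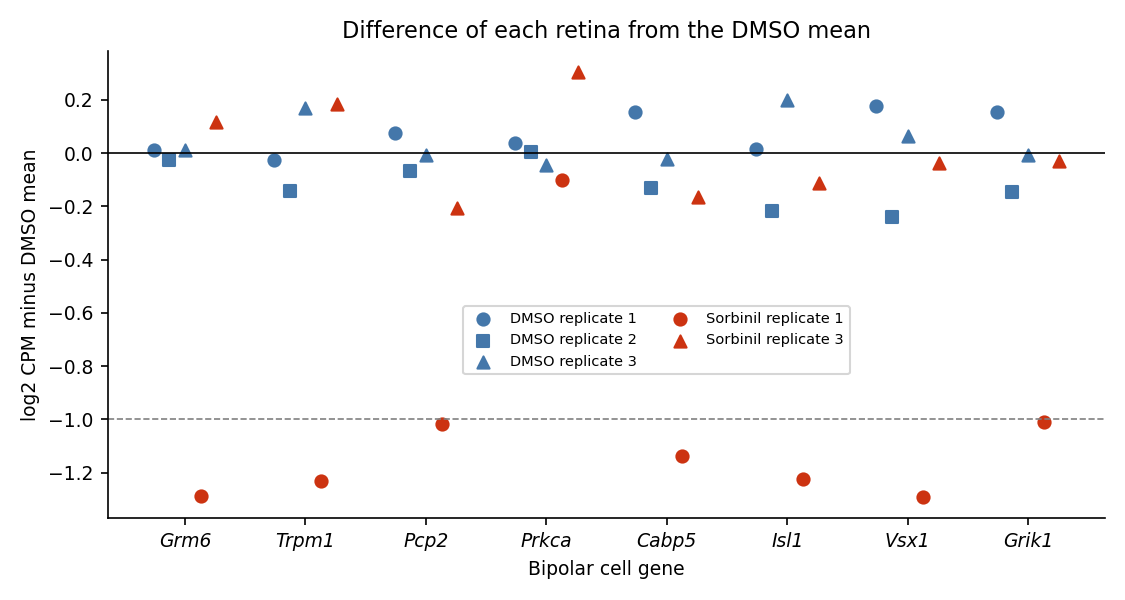
Log2 CPM of each gene minus its DMSO mean, 1 point per retina, with DMSO in blue, Sorbinil in red, and a dashed line at a 2-fold lower level. In Sorbinil replicate 1, 7 of the 8 genes lie below the dashed line and *Prkca* lies at -0.10, while Sorbinil replicate 3 lies between -0.21 and 0.31.

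Ratios between the genes within a retina do not depend on how the libraries were scaled. The ratio of *Trpm1* to *Grm6* was 3.66, 3.46 and 4.20 in the DMSO retinas and 3.92 and 3.95 in Sorbinil replicates 1 and 3. The channel and its receptor therefore kept nearly the same proportion in Sorbinil replicate 1, where both were low. Likewise, *Isl1* to *Vsx1* was 1.27, 1.45 and 1.56 with DMSO, and 1.49 and 1.35 with Sorbinil, inside the DMSO range. *Grik1* to *Grm6* was 1.25, 1.04 and 1.12 in the DMSO retinas and 1.37 and 1.02 in Sorbinil replicates 1 and 3, just above and just below the DMSO range.

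The ratios of *Prkca* to the other genes were farther from the DMSO values in Sorbinil replicate 1. Its ratio to *Grm6* was 4.72, 4.72 and 4.45 in the DMSO retinas, and 10.6 and 5.28 in Sorbinil replicates 1 and 3. Its ratio to *Pcp2* was 5.76, 6.21 and 5.75 with DMSO, and 11.1 and 8.42 with Sorbinil. Both Sorbinil retinas were above every DMSO retina in these ratios. Its ratio to *Trpm1* was 1.29, 1.36 and 1.06 with DMSO, and 2.69 and 1.34 with Sorbinil, so that Sorbinil replicate 3 was not above the DMSO range. These ratios were chosen after the values were seen and carry no test. *Sebox*, a homeodomain gene listed with the rod bipolar genes, was likewise nearer to the DMSO mean in Sorbinil replicate 1, at -0.21.

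**Figure D3:**
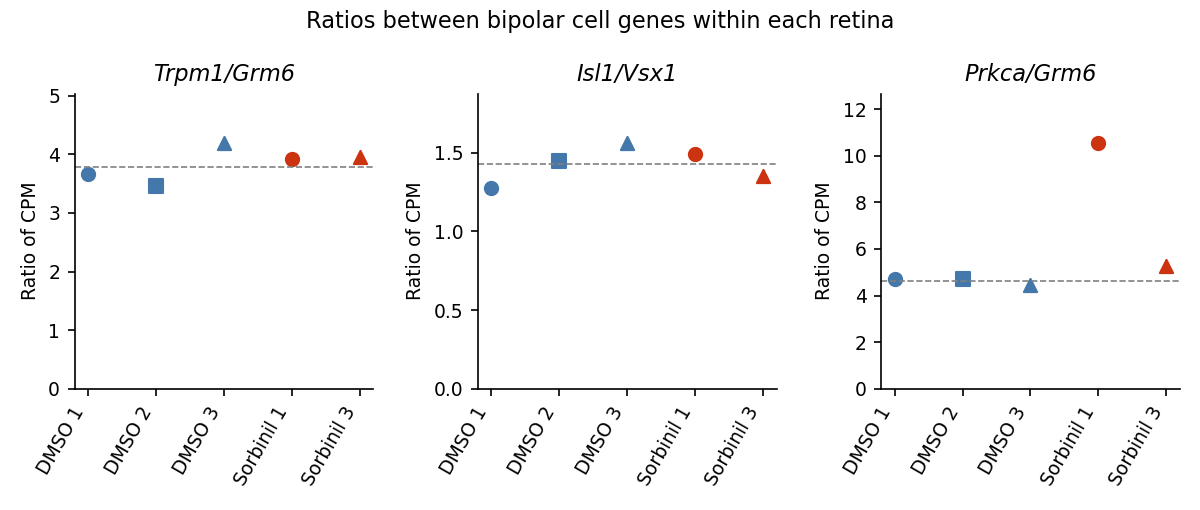
Ratios of CPM between genes within each retina (DMSO blue, Sorbinil red, dashed line at the DMSO mean), for *Trpm1* to *Grm6*, *Isl1* to *Vsx1* and *Prkca* to *Grm6*. The first 2 ratios lie inside the DMSO range in both Sorbinil retinas, and the last is 10.6 in Sorbinil replicate 1 against 4.45 to 4.72 with DMSO. The ratio of *Grik1* to *Grm6*, outside the DMSO range in both Sorbinil retinas, is not drawn.

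Levels of different genes were compared per length, as CPM per kb of the merged exons annotated in GENCODE vM39. In the DMSO retinas *Prkca* (38.0 ± 1.1 CPM per kb, SD, n = 3) and *Pcp2* (36.9 ± 1.9) were highest, and their values overlapped. *Cabp5* followed at 27.4 ± 2.8 CPM per kb and *Trpm1* at 18.4 ± 2.0. *Grm6* (15.9 ± 0.23), *Grik1* (14.5 ± 1.5) and *Isl1* (12.1 ± 1.7) overlapped as neighbours, and *Vsx1* was lowest at 8.94 ± 1.30 CPM per kb. In Sorbinil replicate 1 *Prkca* stood at 35.4 CPM per kb and *Pcp2*, next in order, at 18.2. The order in Sorbinil replicate 3 was that of the DMSO means, from 46.9 for *Prkca* to 8.65 for *Vsx1*. The merged exons of *Trpm1* are 17.678 kb long, the longest of the 8, and those of *Pcp2* 1.828 kb, the shortest, so a level per kb depends on which annotated exons are used. If reads in introns were counted, genes with a long span such as *Prkca* (410.888 kb) and *Grik1* (394.366 kb) would be overstated.

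Some counts could be shared with neighbouring genes, because no source says that strand was used in counting. The labels call the libraries stranded, and the methods name another kit. *Pet100*, on the opposite strand, overlaps exons of *Pcp2*. It measured 9.35, 10.1 and 10.2 CPM with DMSO, and 13.2 and 7.71 CPM with Sorbinil, the reverse order of *Pcp2* in Sorbinil replicate 1. *Apoh*, on the opposite strand at the start of *Prkca*, had 6 to 28 counts per retina, against at least 19499 counts for *Prkca*. Exons of *Grm6* and *Prkca* also overlap annotated long noncoding RNA genes, which were not analysed here.

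The start regions of the 8 genes, from 250 bases before to 50 bases after the start of the GENCODE canonical transcript, were read from GRCm39. The letters TAATCC, the core recognised by the photoreceptor and bipolar factors OTX2 and CRX, were searched on both strands, as was TAATTA, a common homeodomain core. TAATCC was found in the windows of 2 of the 8 genes, *Cabp5* and *Isl1*, compared to 7.38% of 19616 windows of the same length at coding genes. TAATTA was found in 0 of the 8, compared to 4.41% of all windows. Over the 62 genes of the bipolar lists, the 8 included, TAATCC was in 8 windows (12.9%) and TAATTA in 1 (1.61%). In *Cabp5* TAATCC began 137 and 18 bases before the start, and in *Isl1* 166 bases before it. *Prkca* and *Grm6* had neither. The 4 windows are shown from 5′ to 3′ on the strand of the gene, with TAATCC in capitals. They lie at chr7:13131807-13132106 (*Cabp5*, plus strand), chr13:116446186-116446485 (*Isl1*, minus strand), chr11:50741262-50741561 (*Grm6*, plus strand) and chr11:108235011-108235310 (*Prkca*, minus strand). A match is a description of letters and not evidence of binding. Any relation of these letters to the levels was not tested.
Cabp5: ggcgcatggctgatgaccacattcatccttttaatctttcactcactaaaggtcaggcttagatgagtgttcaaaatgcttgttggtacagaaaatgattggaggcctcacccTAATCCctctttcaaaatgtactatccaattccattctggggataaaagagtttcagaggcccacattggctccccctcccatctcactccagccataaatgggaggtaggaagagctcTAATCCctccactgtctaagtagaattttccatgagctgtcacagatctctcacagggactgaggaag
Isl1: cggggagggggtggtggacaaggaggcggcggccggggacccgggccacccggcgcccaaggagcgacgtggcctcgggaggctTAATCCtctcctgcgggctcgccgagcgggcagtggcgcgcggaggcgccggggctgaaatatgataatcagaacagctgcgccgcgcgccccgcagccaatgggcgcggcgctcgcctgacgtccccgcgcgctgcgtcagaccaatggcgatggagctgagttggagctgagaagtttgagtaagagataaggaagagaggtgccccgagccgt
Grm6: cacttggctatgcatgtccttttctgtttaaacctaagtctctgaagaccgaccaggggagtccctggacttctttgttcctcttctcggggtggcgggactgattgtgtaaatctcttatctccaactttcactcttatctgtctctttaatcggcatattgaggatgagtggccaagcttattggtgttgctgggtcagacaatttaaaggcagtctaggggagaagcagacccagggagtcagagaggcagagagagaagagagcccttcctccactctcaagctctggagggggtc
Prkca: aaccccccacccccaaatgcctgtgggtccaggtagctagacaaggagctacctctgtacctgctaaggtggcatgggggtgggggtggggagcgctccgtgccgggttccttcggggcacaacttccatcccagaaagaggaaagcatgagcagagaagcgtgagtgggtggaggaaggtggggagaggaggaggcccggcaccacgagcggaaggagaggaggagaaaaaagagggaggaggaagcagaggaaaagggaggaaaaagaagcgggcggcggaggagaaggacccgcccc

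The mGluR6 cascade was then described with a list of 14 genes, 4 of them among the 8 above. None was called in either direction, 2 had groups that did not overlap (*Pcp2* and *Rgs11*, both lower), and the median log2 fold change was -0.31. The non-overlapping count is near the 10.5% of all genes that lay lower in this way. Taken by retina, the list had medians of -0.80 and -0.07 in Sorbinil replicates 1 and 3. *Rgs11*, which encodes a regulator that ends the Go signal, measured 20.7, 16.4 and 17.3 CPM with DMSO, and 8.73 and 15.4 CPM with Sorbinil. This came to -0.59 on the log2 scale, with an unadjusted p of 0.0778 by the edgeR quasi-likelihood test. *Gng13*, the gamma subunit of this G protein, measured 57.6 to 66.7 CPM with DMSO, and 40.8 and 57.9 CPM with Sorbinil.

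Some genes of the cascade that are also used by photoreceptors had other values in Sorbinil replicate 1. *Gnb5*, the partner of RGS proteins, and *Rgs9bp*, a membrane anchor for them, were at 0.28 and 0.43 log2 above the DMSO mean there, and at -0.31 and -0.30 in Sorbinil replicate 3. *Gnb3*, also listed here as a cone marker, was at 0.04 and -0.42 in Sorbinil replicates 1 and 3. In Sorbinil replicate 1 *Lrit3*, which encodes a leucine-rich repeat protein needed for TRPM1 at the synapse, was at 0.98. *Gpr179*, the orphan receptor that holds RGS proteins, was at -1.30 there. *Gnb3*, *Lrit3* and *Gpr179* were chosen after their values were seen. The 14 genes spanned -1.39 to 0.98 in Sorbinil replicate 1, a wider range than the 8 bipolar genes. In Sorbinil replicate 3 they spanned -0.42 to 0.44.

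Among 14 bipolar transcription factors, 0 were called and 13 had a log2 fold change below 0, compared to 51.0% of all genes tested. The list shares 2 genes with the 8 above, and the median log2 fold change of its other genes was -0.42. Over all 14 genes the median was -0.45. This median rested on 1 retina, since the list was at -1.18 in Sorbinil replicate 1 and at -0.03 in Sorbinil replicate 3, and the median log2 fold change without Sorbinil replicate 1 was -0.025. The groups did not overlap for 3 of the 14, *Lhx3*, *Fezf2* and *Sebox*, all lower, compared to 10.5% lower and 12.8% higher over all genes. *Lhx3*, a LIM homeodomain factor, measured 10.8, 7.68 and 7.94 CPM with DMSO and 3.80 and 6.32 CPM with Sorbinil, with a log2 fold change of -0.80 and an unadjusted p-value of 0.0379 (edgeR). *Fezf2*, a zinc finger factor, had a log2 fold change of -0.83 and an unadjusted p-value of 0.0496 in this edgeR fit, which rests on 1.81 and 3.59 CPM with Sorbinil and 4.41 to 5.15 CPM with DMSO. Neither reached the threshold of the study, and both had an adjusted p-value of 0.758. *Otx2*, which photoreceptors share with bipolar cells, was at 0.39 and -0.14 log2 from the DMSO mean in Sorbinil replicates 1 and 3.

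The lists of bipolar subtypes were all low in Sorbinil replicate 1. These lists share 5 (rod), 2 (OFF) and 1 (ON cone) genes with the 8 above, so they are not independent of them. The median log2 fold changes of their other genes were -0.31, -0.32 and -0.36. With the shared genes kept, rod bipolar genes (9 genes) had a median of -1.02 in Sorbinil replicate 1. OFF bipolar genes (13 genes) had -1.24 and ON cone bipolar genes (12 genes) -1.19. In Sorbinil replicate 3 the same medians were -0.02, 0.22 and 0.007. The OFF median in that retina was above the DMSO medians of -0.09 to 0.16, while 2 OFF genes, *Lhx3* and *Fezf2*, were below every DMSO retina. None of the genes in the 3 lists was called, and their groups did not overlap, always lower with Sorbinil, for 3, 2 and 2 genes, compared to 10.5% of all genes. The 3 rod bipolar genes include *Pcp2* and *Cabp5*, described above.

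Of the rod bipolar list, *Car8*, a carbonic anhydrase-related protein, measured 110.4, 100.0 and 117.7 CPM with DMSO, and 67.8 and 120.9 CPM with Sorbinil. *Vstm2b* and *Bhlhe23*, the latter a basic helix-loop-helix factor of rod bipolar cells, were at -1.15 and -0.91 in Sorbinil replicate 1, and at -0.09 and -0.02 in Sorbinil replicate 3. Of the OFF list, the protocadherin genes *Pcdh10* and *Pcdh17* were at -1.50 and -1.40 in Sorbinil replicate 1, and at 0.34 and 0.41 in Sorbinil replicate 3. Both protocadherins were thus below every DMSO retina in one Sorbinil retina and above every DMSO retina in the other.

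Of the ON cone bipolar list, *Cpne9*, a copine gene, measured 5.68, 4.12 and 4.95 CPM with DMSO and 2.17 and 3.34 CPM with Sorbinil, with a log2 fold change of -0.83 and an unadjusted p-value of 0.0283 (edgeR). *Cck*, which encodes the neuropeptide cholecystokinin and is not restricted to bipolar cells, measured 11.1 to 12.2 CPM with DMSO and 5.02 CPM in Sorbinil replicate 1, and in Sorbinil replicate 3 it was at -0.24 log2 from the DMSO mean. These 2 genes were the ones whose groups did not overlap. *Scgn*, the calcium-binding protein secretagogin, was at -1.29 and -0.07 in Sorbinil replicates 1 and 3. *Serpini1*, a protease inhibitor, was at -0.47 and 0.03.

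A list of 12 genes of the ribbon synapse, the output of bipolar cells and also of photoreceptors, had a median log2 fold change of 0.20, opposite in sign to the other bipolar lists. None was called, and *Pclo* was the gene whose groups did not overlap. *Pclo*, which encodes the active-zone scaffold piccolo, measured 125, 137 and 140 CPM with DMSO and 166 and 204 CPM with Sorbinil, with a log2 fold change of 0.46 and an unadjusted p-value of 0.0179 (edgeR), and an adjusted p-value of 0.758. *Slc17a7*, the vesicular glutamate transporter of bipolar cells and photoreceptors, was at 0.50 in Sorbinil replicate 1 and at -0.39 in Sorbinil replicate 3. *Stx3*, a ribbon synapse syntaxin, was at 0.79 and -0.18, and *Cacna1f*, a calcium channel of these terminals, at 0.54 and -0.04. As a list, the 12 genes had medians of 0.51 and -0.15 in Sorbinil replicates 1 and 3. They did not move together: in Sorbinil replicate 1 they spanned -0.86 to 0.80, with 3 of the 12 below the DMSO mean. In Sorbinil replicate 3 they spanned -0.39 to 0.60, with 8 of the 12 below it.

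Markers of other retinal cells moved in the same libraries. In Sorbinil replicate 1 the rod list was at a median of 0.52 and all 15 of its genes were above the DMSO mean, with a summed level of 132613 CPM, compared to 80707 to 95518 CPM in the DMSO retinas. In Sorbinil replicate 3, 14 of the 15 rod genes were below the DMSO mean and the summed level was 69084 CPM. Cone markers (12 genes) were at 0.45 in Sorbinil replicate 1 and -0.22 in Sorbinil replicate 3, with summed levels of 3369 and 1959 CPM against 2175 to 3106 CPM with DMSO. The other lists were low in Sorbinil replicate 1 together with the bipolar genes. Amacrine markers (16 genes) had a median of -1.35 there and 0.09 in Sorbinil replicate 3, horizontal cell markers (9 genes) -0.75 and 0.11, and ganglion cell markers (15 genes) -1.22 and -0.19. Müller glia markers (14 genes) had -1.44 and -0.03, microglia markers (12 genes) -0.93 and -0.10, and endothelium and pericyte markers (14 genes) -1.75 and -0.42.

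In summed level, amacrine markers had 695 and 1959 CPM in Sorbinil replicates 1 and 3 against 1585 to 2031 CPM with DMSO, and Müller glia markers 2842 and 7675 CPM against 7215 to 8725 CPM. Ganglion cell markers summed to 155 and 321 CPM against 279 to 400.0 CPM, and horizontal cell markers to 701 and 963 CPM against 780 to 926 CPM. In Sorbinil replicate 1, *Ndrg1* (named after its values were seen) gave 400 CPM of the horizontal cell sum and was at 0.55 log2. In that retina 8 of the 9 horizontal cell markers were below the DMSO mean. Microglia markers summed to 114 and 189 CPM against 169 to 253 CPM, and endothelium and pericyte markers to 1634 and 1264 CPM against 1674 to 1747 CPM. Most of this last sum came from 1 gene, *Vtn* (named after its values were seen). It measured 1115 to 1382 CPM with DMSO, and 1450 and 793 CPM in Sorbinil replicates 1 and 3. In Sorbinil replicate 1 *Vtn* was at 0.23 log2 from the DMSO mean, while 12 of the 14 genes of its list were below that mean. No gene tested in any list was at 0 counts in any retina. In Sorbinil replicate 1 the median of the bipolar genes, -1.18, lay between those of microglia and ganglion cells. The part of cell makeup in the bipolar values was not tested.

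**Figure D4:**
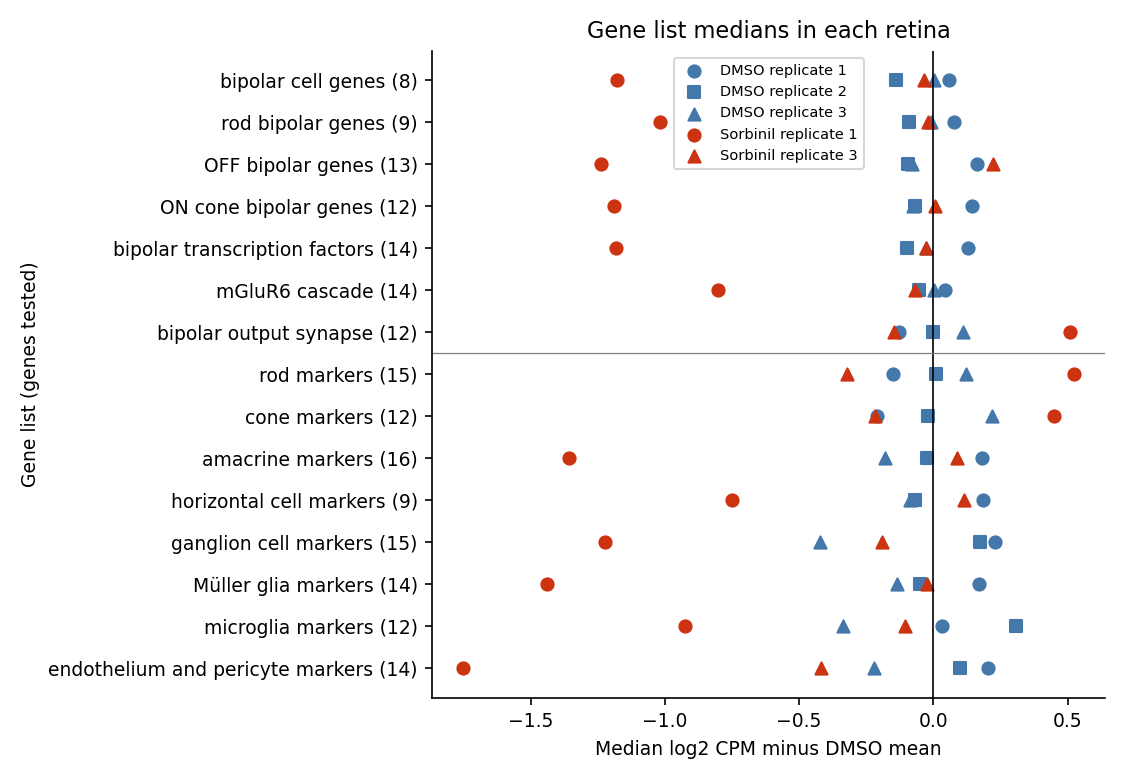
Median over each gene list of log2 CPM minus the DMSO mean (horizontal axis), 1 point per retina, with the number of genes tested in parentheses; bipolar lists are above the line and other cells below it. Sorbinil replicate 1 is at -1.18 for the 8 bipolar cell genes, 0.51 for the output synapse and 0.52 for rods, and Sorbinil replicate 3 stays between -0.42 and 0.22.

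Of 14825 genes outside the lists, the 5 with the profile nearest to the median of the 8 bipolar genes over the 5 retinas were *Drd1*, *Bmp6*, *Cyp2j6*, *Msrb2* and *Magee2*. Nearness was the root mean square distance of log2 CPM minus the DMSO mean, and it ran from 0.037 to 0.047. *Drd1*, which encodes the dopamine D1 receptor, was the nearest. It measured 50.4, 43.8 and 45.8 CPM with DMSO, and 20.7 and 46.3 CPM with Sorbinil, low in Sorbinil replicate 1 alone. *Bmp6*, a growth factor gene of the BMP family, had only 32 counts in Sorbinil replicate 1. Likeness over 5 retinas, of which 1 stands apart, is a description of that retina.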

How the data were processed

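Injured retinas of 3 DMSO and 2 Sorbinil mice were analysed. The authors used CLC Genomics Workbench to remove adaptors and align reads to GRCm39. The deposited values are total counts per gene, whole numbers with no normalization. The annotation release, the strand setting and the handling of reads on several genes are not given in the sources used here. The paper and the labels name different library kits. Each count column was matched to its retina by the label it shares. No further value columns were present.

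The tests were run with edgeR 4.0.16 (R 4.3.3). After filterByExpr with a minimum count of 10, libraries were scaled by TMM. The model was fitted by glmQLFit, tested by glmQLFTest, and p-values of all genes were adjusted together by Benjamini-Hochberg. Log2 CPM used a prior count of 2. Standard errors were derived from the F statistic. The steps were tested on simulated data. Nothing in the labels says whether replicates share litters or days. The p-values test the group difference against the variation between these retinas, which need not be that between mice in general. Reads carry no molecular identifiers, and counting error is a lower limit of error. Positions and exon lengths came from GENCODE vM39, which held 23488 of the symbols once.

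The 8 genes and all gene lists were chosen with earlier results of these data known. From each bipolar list (not the lists of other cells), the text names the 2 further genes with the smallest p-value, the 2 with the highest CPM, and any called gene. A gene that this rule would name is not reported here. Horizontal cell markers include 1 symbol that was not matched. The alternatives left out each retina in turn, added a replicate block, or used other thresholds, filters, scalings or the Wald test of DESeq2 1.42.0. Leaving out *Prkca* was added after seeing the data.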

Additional observations from a re-analysis of the deposited data

How the results depend on the processing

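The count of 0 called bipolar genes held under the other filters, the other scalings, the DESeq2 Wald test, the replicate block, the stricter thresholds and without each DMSO retina. With no limit on the fold change it was 1, and it ran from 0 to 7 when each retina was left out in turn, the highest without Sorbinil replicate 3. The median log2 fold change of the 8 genes, -0.49, ran from -1.19 (without Sorbinil replicate 3) to -0.031 (without Sorbinil replicate 1), and was -0.54 without *Prkca*. Leaving out each retina, *Grm6* ran from -1.29 to 0.13 and *Trpm1* from -1.23 to 0.19, both above 0 only without Sorbinil replicate 1, and *Prkca* ran from -0.10 (without Sorbinil replicate 3) to 0.32. The list medians over the same fits ran from -0.80 to -0.063 for the mGluR6 cascade, -1.20 to -0.025 for transcription factors, -1.02 to -0.013 for rod bipolar, -1.25 to 0.23 for OFF bipolar, -1.21 to 0.013 for ON cone bipolar genes and -0.14 to 0.51 for the output synapse. Scaling by library size alone moved the median of all genes from -0.008 to -0.11, that of the mGluR6 cascade to -0.37 and that of the output synapse to 0.058. The causes were not tested.

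With the replicate block the median of the 8 genes was -0.62 and 4 of them had an unadjusted p-value of at most 0.1, with 0 called. The share of all genes at that p-value was not computed for this fit, so the count of 4 is not read as a result. DMSO replicate 2 shares its number with no Sorbinil retina, so it adds nothing to the group contrast in this fit. Deviations of same-numbered retinas from their group means correlated at -0.24 (replicate 1) and -0.12 (replicate 3) across genes. The deviations of the Sorbinil retinas from their group mean mirror each other. Differently numbered retinas therefore gave the same values with the opposite sign, 0.24 and 0.12. For this reason the correlations cannot decide whether the numbers pair the retinas. No label says that a number marks a shared litter or day. The block called 203 of all genes, compared to 257 without it. Over all genes the count called was 408 with no filter, 148 with at least 10 counts in every retina, 164 without DMSO replicate 1 and 2903 without Sorbinil replicate 3.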
